A study of Mus musculus with 3 samples.

Results

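Secreted Wnt inhibitors were examined in single-cell RNA profiles of abdominal skin dermis from mice before, during and after pregnancy. The set held 8 genes, Sfrp1, Sfrp2, Sfrp4, Frzb, Wif1, Dkk2, Sostdc1 and Dkk3, taken by symbol from a list, out of 28693 genes in the files. All 8 were found, and all had UMIs (unique molecular identifiers, each standing for 1 captured RNA molecule). Levels were read only in cells that showed 200 genes or more and had no more than 10% of their UMIs from mitochondrial genes.

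The dpc16 library came from pregnant mice at gestation day 16, the dpp42 library from mice at day 42 after birth, and the NP library from non-pregnant controls. All were C57BL/6 mice aged 8 to 12 weeks with the genotype Col1a2creERT2; R26H2B EGFP, in which a tamoxifen-activated recombinase is driven by Col1a2 regulatory sequence, active in fibroblasts, and the R26 locus carries a nuclear green reporter. All received tamoxifen: during pregnancy for dpc16 and dpp42, and for 3 days for NP, whose skin was taken 48 days later. Skin freed of subcutaneous fat spent 30 min in 0.25% trypsin, which frees the dermis from the epidermis, and the dermal cells were passed through 40 and 20 µm filters and captured at random in 10x droplets, which tag the 3' end of each RNA. There was 1 library per stage, and the number of mice behind each is not given in the labels, so stage cannot be told apart from animal, capture and sequencing run. No test between stages was possible, and every interval below covers counting error only.

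Wnt proteins are secreted signals that bind Frizzled receptors together with the co-receptors LRP5 and LRP6 on the receiving cell and stabilise β-catenin, which then acts with TCF/LEF factors on target genes. Secreted inhibitors work outside the cell. The SFRP proteins, with the family member encoded by Frzb, carry a Frizzled-like domain that binds Wnts, and WIF1 binds Wnts through a domain of its own. DKK2 and the Sostdc1 protein bind the LRP co-receptors instead, and the Sostdc1 protein also binds BMPs. DKK3 is a divergent Dickkopf protein whose effect on Wnt signalling differs between settings. In skin, Wnt signalling drives hair follicle formation and the growth phase of the hair cycle, and several of these inhibitors are known from the resting bulge and from the dermis around the follicle.

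After the filter 1289 NP, 3652 dpc16 and 1081 dpp42 cells remained of 1330, 4122 and 1196 barcodes, 6022 in all. The submitters state 6020 cells, with 3650 for dpc16 and the same numbers for the other libraries. Median depth was 3119 UMIs per cell for NP, 4300.5 for dpc16 and 3252 for dpp42. At most 6 barcodes occurred in both libraries of a pair. The mitochondrial limit removed 41, 470 and 115 barcodes from NP, dpc16 and dpp42. The 8 genes together gave 975 UMIs in NP, 5584 in dpc16 and 1059 in dpp42, or 0.0245% of all UMIs.

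Cells were grouped without these 8 genes into 32 clusters, and clusters were named from marker lists. Follicle keratinocyte-like cells numbered 154, 395 and 166 in NP, dpc16 and dpp42, interfollicular keratinocyte-like cells 613, 509 and 290, and fibroblast-like cells 98, 1080 and 112. The label calls these libraries dermal cells, yet keratinocytes of the follicle and the interfollicular epidermis were present in each, and fibroblast-like cells made up 7.6% of NP, 29.6% of dpc16 and 10.4% of dpp42 cells. A small cluster of follicle dermal-like cells (cluster 27; 12, 31 and 9 cells) was led by Slc26a7, Crabp1, Notum and Inhba. There 11, 10 and 9 of 15 dermal papilla and sheath markers had a UMI, at a summed level of 8808, 2845 and 2793 CPM (counts per 1000000 UMIs of the class sum), while the papilla markers Corin and Rspo2 and the marker Acan were at 0 in each library. Basal keratinocyte markers summed to 4122, 5493 and 6503 CPM in the same cells, so its levels are given with that limit; the part of keratinocyte RNA in them was not tested. The cluster with the most cells of a class differed between stages. Among fibroblast-like cells it was cluster 3 in NP (50 cells), cluster 25 in dpc16 (388) and cluster 24 in dpp42 (63). Among follicle keratinocyte-like cells it was bulge-like cluster 0 in NP (68) and dpp42 (86) and upper follicle-like cluster 6 in dpc16 (156), and among interfollicular cells it was cluster 1 in NP (236) and dpp42 (101) and cluster 22 in dpc16 (187).

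The 8 genes divided the skin between them. Of these 4 classes, by the mean over the libraries, Sfrp1 and Sostdc1 stood highest in follicle keratinocytes, Dkk2 and Sfrp4 in fibroblasts, and Dkk3, Wif1, Sfrp2 and Frzb in the small follicle dermal group. That place rests on 3 UMIs for Sfrp2 and 5 for Frzb. For Dkk3 it rests on 5 UMIs in dpp42, and with UMIs pooled over libraries Dkk3 was at 79.6 CPM there and 93.6 CPM in follicle keratinocytes. Pooled over libraries, fibroblast-like cells held 84.9% of Dkk2 UMIs while holding 17.2% of all UMIs. Follicle keratinocyte-like cells held 38.6% of Sfrp1 UMIs with 8.74% of all UMIs.

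**Figure D1:**
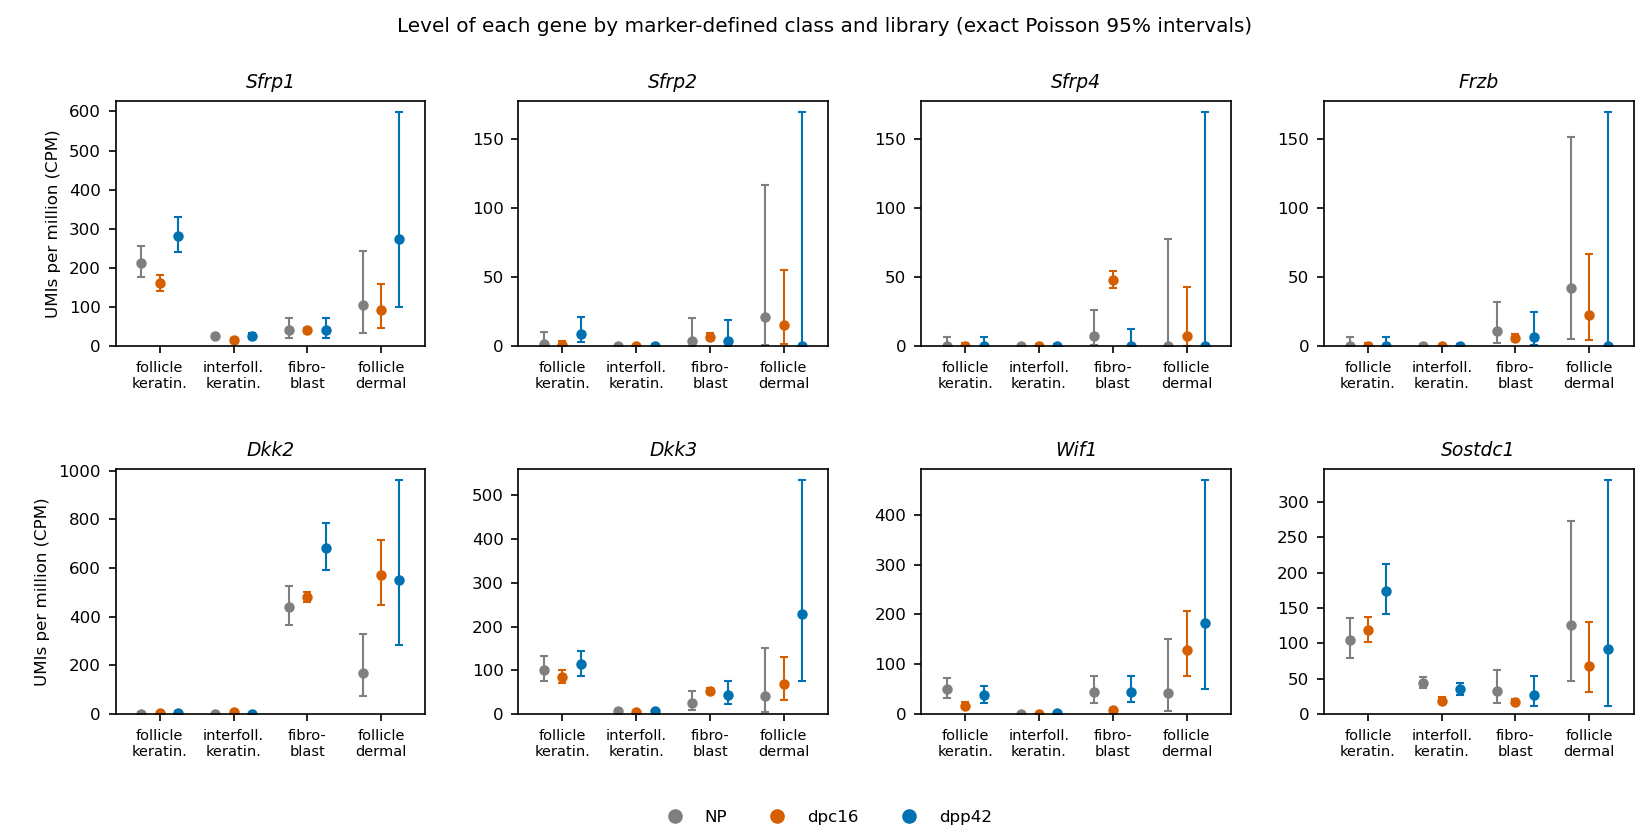
Level of each of the 8 genes as CPM (counts per 1000000 UMIs, vertical axis) in 4 cell classes (horizontal axis) of the NP, dpc16 and dpp42 libraries, with exact Poisson 95% intervals as bars. Sfrp1 stands highest in follicle keratinocytes in NP and dpc16 (214 and 161 CPM), and Dkk2 is at 440, 480 and 682 CPM in fibroblasts and at or below 6.37 CPM in the keratinocyte classes.

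At least 1 of the 8 genes was detected in 61.7% of NP, 59.0% of dpc16 and 69.9% of dpp42 follicle keratinocyte-like cells and in 56.1, 69.1 and 61.6% of fibroblast-like cells. In interfollicular cells the share was 24.3, 24 and 32.1%. Blood endothelial-like cells, taken as the comparison for RNA free in the droplets, had shares of 9.76, 19.5 and 12.4% at median depths of 2450, 4160 and 3101 UMIs. The shares in follicle and fibroblast cells were above these in all 3 libraries, at median depths of 2509, 3376 and 2554.5 UMIs and 2650.5, 4091 and 2420 UMIs.

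Among the genes whose products bind Wnt ligands, Sfrp1 (GRCm38 chr8:23411502-23449632, plus strand) marked the follicle. In follicle keratinocyte-like cells it stood at 214 CPM in NP (95% interval 176 to 256, 116 UMIs), 161 CPM in dpc16 (142 to 182, 258 UMIs) and 282 CPM in dpp42 (240 to 329, 159 UMIs). Interfollicular cells had 25.7, 16.7 and 25.1 CPM. The level in follicle cells was thus 8.32 times that in interfollicular cells in NP (6.23 to 11.2), 9.60 times in dpc16 (7.36 to 12.7) and 11.2 times in dpp42 (8.20 to 15.5), with no overlap of the intervals of the 2 classes in any library. Blood endothelial-like cells had 16.5, 22.1 and 6.46 CPM, and the interfollicular level was below that of endothelial cells in dpc16.

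Within the follicle, Sfrp1 lay in the bulge, the stem cell niche of the resting follicle. Cluster 0, a bulge-like cluster led by Postn and Lhx2, had 561, 503 and 605 CPM in NP, dpc16 and dpp42, and 60.3, 61.5 and 66.3% of its cells held an Sfrp1 UMI. Cluster 20, led by Nppc, Sgk1 and the stem cell receptor gene Lgr5, had 74.7, 110 and 108 CPM. Cluster 6, upper follicle-like and led by Defb6, Cst6 and Krt79, had no Sfrp1 UMI in NP or dpp42 and 15 UMIs, 19.9 CPM, in dpc16. In dpc16 the bulge level was 14.3 times that of the upper follicle (8.51 to 26.0), and it was at least 7.97-fold higher in NP and at least 6.91-fold higher in dpp42, taking 3 counts as the floor for a cluster at 0. Unnamed cluster 2, led by Hbb-bs, Krt6a, Wfdc3 and Postn, had 270, 286 and 272 CPM. It matched the bulge list best (15, 167 and 13 cells), but more of its 10 leading genes were markers of another class. It was therefore left out of the follicle class here and in the stage ratios below.

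Fibroblast-like cells had 40.0, 39.9 and 40.9 CPM of Sfrp1. In dpc16 it was 71.0 CPM in fibroblast cluster 3. Follicle dermal-like cells had 105, 91.3 and 275 CPM on 5, 12 and 6 UMIs. In dpc16 this was 2.29 times the fibroblast level (1.16 to 4.09).

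**Figure D2:**
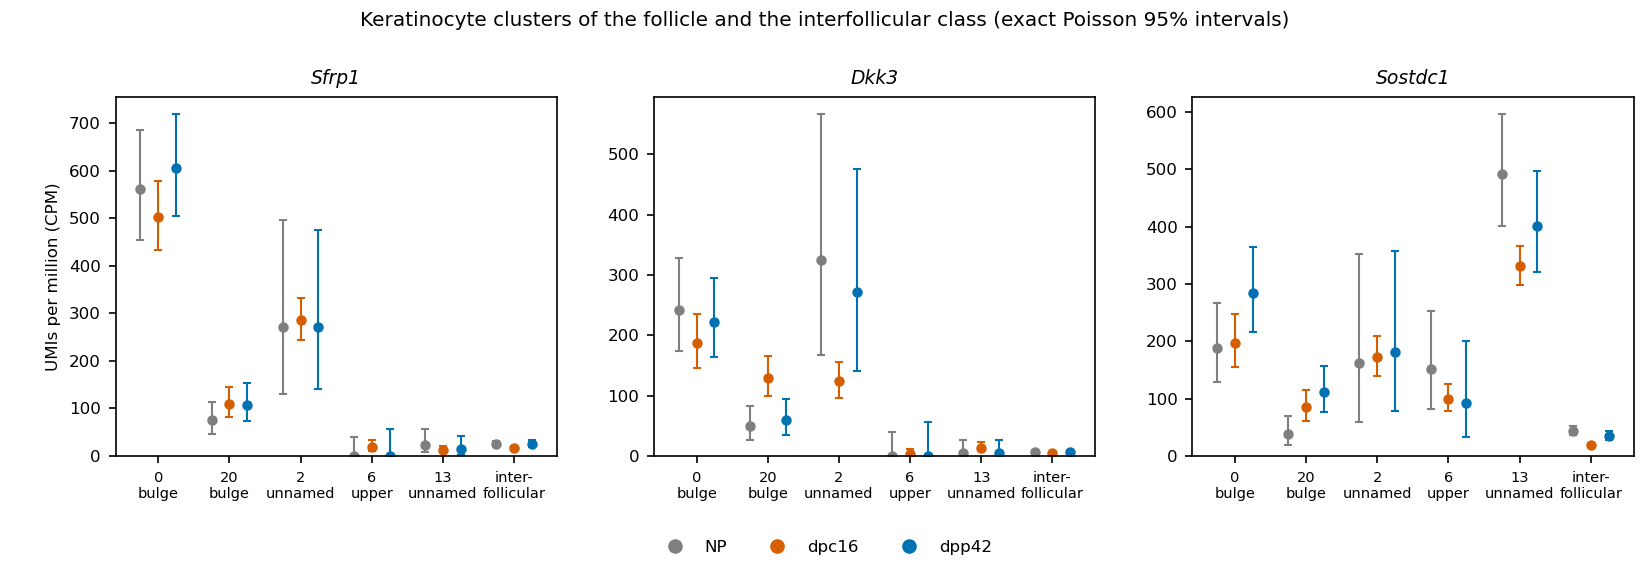
Levels of Sfrp1, Dkk3 and Sostdc1 as CPM (counts per 1000000 UMIs, vertical axis) in follicle keratinocyte clusters, unnamed clusters 2 and 13 and interfollicular cells (horizontal axis) of each library, with exact Poisson 95% intervals. Sfrp1 and Dkk3 stand highest in clusters 0 and 2 and are at or near 0 in upper follicle cluster 6, while Sostdc1 reaches 492, 331 and 402 CPM in cluster 13.

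Sfrp4 (chr13:19623104-19632994, plus strand), an SFRP gene known from mesenchymal tissues, had nearly all of its UMIs in dpc16 fibroblasts. It gave 228 UMIs, 47.6 CPM, in dpc16 fibroblast-like cells, against 2 UMIs, 7.27 CPM, in NP and none in dpp42, where 3 counts would be 10.2 CPM. The dpc16 UMIs came from 92 cells, with 21 in the cell that had most, and they were 98.3% of the library's Sfrp4 UMIs; both NP UMIs came from 1 cell. Cluster 3, led by the chemokine and matrix genes Ccl2, Tnfaip6 and Ccl7, had 131 CPM in dpc16, with a UMI in 22.4% of its cells, against 13.7 CPM in NP and none in dpp42. Cluster 25, led by Klk1, Ctla2a and Col1a1, had 44.4 CPM in dpc16, and cluster 18 and cluster 24 had 8.04 and 4.58 CPM. No follicle keratinocyte-like cell held an Sfrp4 UMI in any library.

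Sfrp2 (chr3:83766321-83774316, plus strand) and Frzb (chr2:80411970-80447625, minus strand), which encodes secreted Frizzled-related protein 3, were sparse, with 50 and 45 UMIs over all cells. In dpc16, 31 of 38 Sfrp2 UMIs, or 81.6%, lay in fibroblast-like cells, 23 of them in cluster 3. In dpp42, 5 of 7 Sfrp2 UMIs lay in bulge-like cluster 20. Frzb gave 28 of its 36 dpc16 UMIs (77.8%) in fibroblast-like cells, 19 of them in cluster 18, where it was at least 5.98-fold higher than in cluster 3. At these counts no difference between stages was detectable for either gene.

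Wif1 (chr10:121033960-121100650, plus strand) was found both in the bulge and in dermal cells. Follicle keratinocyte-like cells had 49.7 CPM in NP (32.8 to 72.3), 16.8 CPM in dpc16 (11.1 to 24.5) and 37.2 CPM in dpp42 (23 to 56.9), on 27, 27 and 21 UMIs. All came from the 2 bulge-like clusters. Cluster 20 had 78.3, 46.6 and 66.1 CPM. Its mean log2 enrichment was 1.62 for bulge markers and 1.29 for basal interfollicular markers. Cluster 0 had 29.5, 13.2 and 9.45 CPM on 5, 5 and 2 UMIs, whereas upper follicle cluster 6 had no UMI in any library. Cluster 20, low in Sfrp1, was thus the higher of the 2 bulge-like clusters for Wif1, with cluster 0 at 0.38, 0.28 and 0.14 times its level.

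In the dermis, Wif1 stood at 41.8, 129 and 183 CPM in follicle dermal-like cells on 2, 17 and 4 UMIs, and 41.9% of the dpc16 cells held one. In dpc16 this was 18.2 times the level in fibroblast-like cells (9.54 to 33.5). Unnamed cluster 19, led by Coch, Fmod, Tnmd and Crabp1, had 219 CPM in dpc16, on 36 UMIs in 14 cells with 13 in 1 cell, which is 30.8 times the fibroblast level (18.7 to 50.7). Cluster 19 matched the fibroblast list best, at a mean log2 enrichment of 3.12, and the dermal papilla and sheath list second, at 1.38. Dermal papilla and sheath markers summed to 8002 CPM in it, and it stayed unnamed.

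**Figure D3:**
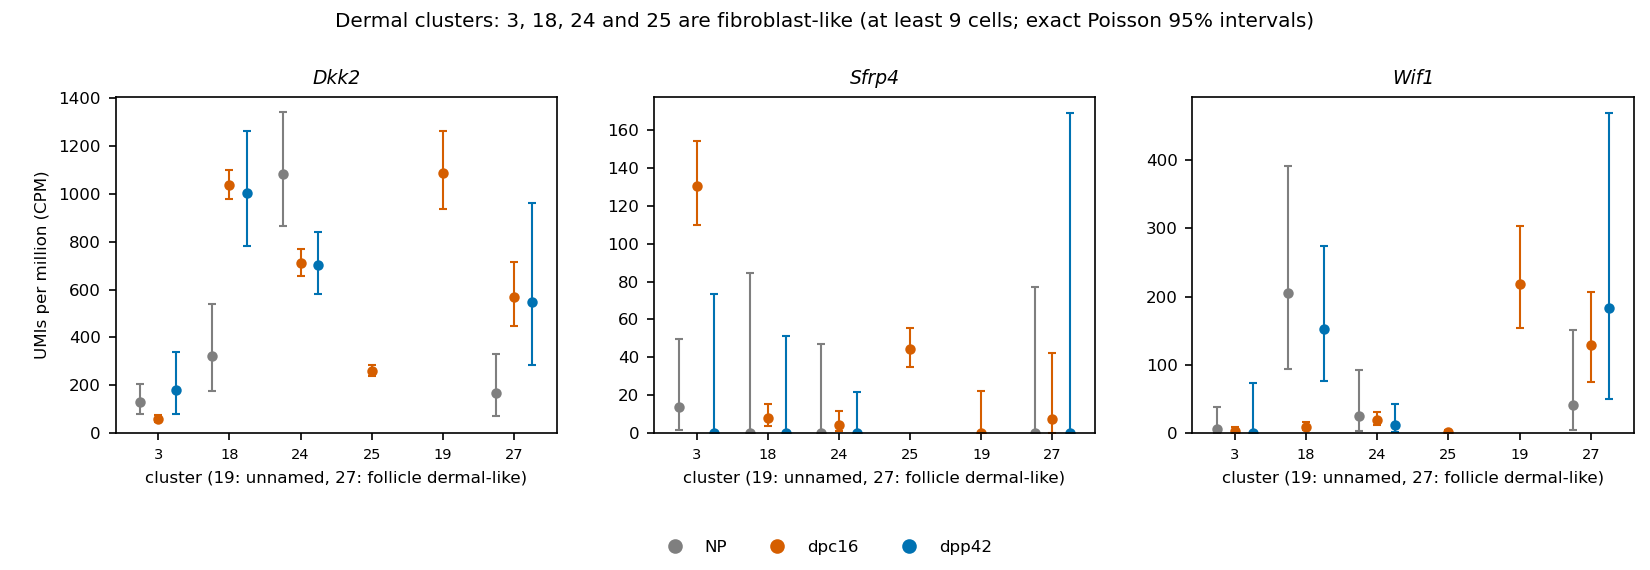
Levels of Dkk2, Sfrp4 and Wif1 as CPM (counts per 1000000 UMIs, vertical axis) in dermal clusters (horizontal axis) of each library with at least 9 cells, with exact Poisson 95% intervals. Dkk2 is high in clusters 18, 24, 19 and 27, Sfrp4 in clusters 3 and 25 of dpc16, and Wif1 in clusters 19 and 27 and, in NP and dpp42, in cluster 18.

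Among the genes whose products bind LRP co-receptors, Dkk2 (chr3:132085292-132180304, plus strand) was the fibroblast gene. It stood at 440 CPM in NP fibroblast-like cells (365 to 526, 121 UMIs), 480 CPM in dpc16 (461 to 500, 2298 UMIs) and 682 CPM in dpp42 (591 to 783, 200 UMIs). A UMI was present in 41.8, 47.3 and 53.6% of cells, and in 26.5, 27.9 and 36.6% after each cell was thinned to 1000 UMIs. The dpp42 interval lay above those of the other libraries. These cells held 78.6% of Dkk2 UMIs in NP, 85% in dpc16 and 87.3% in dpp42. Interfollicular cells had 1.83, 6.37 and 1.37 CPM and follicle keratinocyte-like cells 1.84, 3.12 and 3.54 CPM, below the 8.27, 36.4 and 12.9 CPM of blood endothelial-like cells, and are read as background.

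The fibroblast clusters were unequal in Dkk2. Cluster 18, led by the elastic fibre genes Mfap4, Mgp and Eln, had 320, 1038 and 1002 CPM in NP, dpc16 and dpp42, and cluster 24, led by Mmp3 and Igfbp2, had 1084, 710 and 703 CPM. Cluster 3 had 131, 60.6 and 180 CPM. Cluster 18 was above cluster 3 by 2.45 times in NP (1.14 to 5.16), 17.1 times in dpc16 (13.3 to 22.4) and 5.57 times in dpp42 (2.78 to 12.7). Sfrp4 ran the other way in dpc16, with cluster 18 at 0.06 times cluster 3 (0.03 to 0.12), and so did Sfrp1, at 0.21 times. Unnamed cluster 19 had 1088 CPM of Dkk2 in dpc16, 2.27 times the fibroblast level (1.94 to 2.64). Follicle dermal-like cells had 167, 571 and 550 CPM, and in dpc16 their level was within counting error of that of fibroblasts (1.19 times, 0.93 to 1.5).

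Dkk2 and Wif1 overlapped in dermal cells and parted in the bulge, so the sequences before their gene starts are shown. They come from RefSeq promoter windows on GRCm38.p6, from 250 bases before to 50 after the annotated start, which matched 4 of the 8 genes (Dkk2, Frzb, Sfrp2 and Wif1). Only the stretch before the GENCODE gene start is printed, 5′ to 3′ on the plus strand, at chr3:132085042-132085291 for Dkk2 and chr10:121033754-121033959 for Wif1. Capitals mark CTTTGA or CTTTGT, the core letters bound by TCF/LEF factors, on either strand, and TATAAA on the gene's strand.
Dkk2: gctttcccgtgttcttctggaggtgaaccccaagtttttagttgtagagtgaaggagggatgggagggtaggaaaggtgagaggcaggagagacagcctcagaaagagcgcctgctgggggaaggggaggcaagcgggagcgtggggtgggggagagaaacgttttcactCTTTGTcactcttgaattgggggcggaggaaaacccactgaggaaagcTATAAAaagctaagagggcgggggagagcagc
Wif1: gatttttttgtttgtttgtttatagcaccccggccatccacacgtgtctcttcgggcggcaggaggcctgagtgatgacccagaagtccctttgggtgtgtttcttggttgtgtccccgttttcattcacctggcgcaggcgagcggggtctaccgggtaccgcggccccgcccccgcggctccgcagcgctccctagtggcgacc
The Dkk2 stretch held CTTTGT at −80 to −75 and TATAAA at −32 to −27 from the start, and the Wif1 stretch held neither. Frzb had the TCF/LEF letters on the reverse strand at −95 to −90 from the RefSeq start, so 2 of 4 windows held them. Only 21 bases of the Frzb window lie before its GENCODE gene start, so its match lies inside the annotated gene. The TCF/LEF letters occurred in 31.2% of all 32851 promoter windows. TATAAA occurred in 8.32%. A match of letters is a description and not a binding site.

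Sostdc1 (chr12:36314139-36318452, plus strand) had most of its UMIs in epithelial cells, outside the bulge as well as in it. Its highest level was in unnamed cluster 13, led by haemoglobin genes, Fst and Aqp3, at 492 CPM in NP (401 to 597), 331 CPM in dpc16 (298 to 367) and 402 CPM in dpp42 (321 to 497), on 102, 359 and 85 UMIs. Cluster 13 (69, 274 and 67 cells) matched the upper follicle list best, but stayed unnamed and outside the follicle class by the same rule as cluster 2. A UMI was present in 66.7, 51.8 and 61.2% of its cells. Against interfollicular cells this was 11.1 times higher in NP (8.53 to 14.4), 17.5 times in dpc16 (13.7 to 22.6) and 11.6 times in dpp42 (8.38 to 16). The haemoglobin gene Hbb-bs was at 0, 2133 and 9.5 CPM in this cluster, while Sostdc1 was high in all 3 libraries. Outside the epithelium, the 21 Schwann-like cells had 175 CPM of Sostdc1 pooled over libraries, on 14 UMIs, and from 61.7 to 420 CPM by library. Those cells also had 188 CPM of Sfrp1 on 15 UMIs. The part of keratinocyte RNA or of doublets in them was not tested. Follicle keratinocyte-like cells had 127 CPM when pooled.

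Follicle keratinocyte-like cells had 105, 118 and 174 CPM of Sostdc1 and interfollicular cells 44.3, 18.9 and 34.7 CPM. The ratio of follicle to interfollicular cells was 2.37, 6.27 and 5. Unlike Sfrp1, Sostdc1 was present in upper follicle cluster 6, at 151, 99.6 and 92.1 CPM, beside 189, 197 and 284 CPM in cluster 0 and 39.1, 84.7 and 111 CPM in cluster 20. Inner root sheath genes such as Krt71, Tchh and Krt27 led unnamed cluster 28, which had 139 CPM in dpc16 and 149 CPM in dpp42. Within interfollicular cells, spinous-like cluster 8 (Krt77, Krt10) had 36.3, 3.05 and 28.5 CPM of Sostdc1 and cluster 1 had 63.6, 37.6 and 54.8 CPM.

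Dkk3 (chr7:112116017-112159057, minus strand) joined bulge and dermis. It stood at 101, 84.1 and 113 CPM in follicle keratinocyte-like cells and at 25.5, 51.8 and 44.3 CPM in fibroblast-like cells, against 6.11, 4.25 and 5.94 CPM in interfollicular cells. The follicle level was 16.6, 19.8 and 19.1 times the interfollicular one. Cluster 0 had 242, 187 and 222 CPM and upper follicle cluster 6 had no UMI in NP or dpp42 and 3.98 CPM in dpc16, where the bulge was 38.9 times higher (13 to 191). In dpc16, 43.1% of Dkk3 UMIs lay in fibroblasts, against 6.25% in NP (7 UMIs), and 23.4% lay in follicle keratinocytes, against 49.1% in NP. These shares stand beside 29.6% fibroblast-like cells in dpc16 and 7.6% in NP, and 10.8% and 11.9% follicle keratinocyte-like cells. The part of cell numbers in the shares was not tested.

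**Figure D4:**
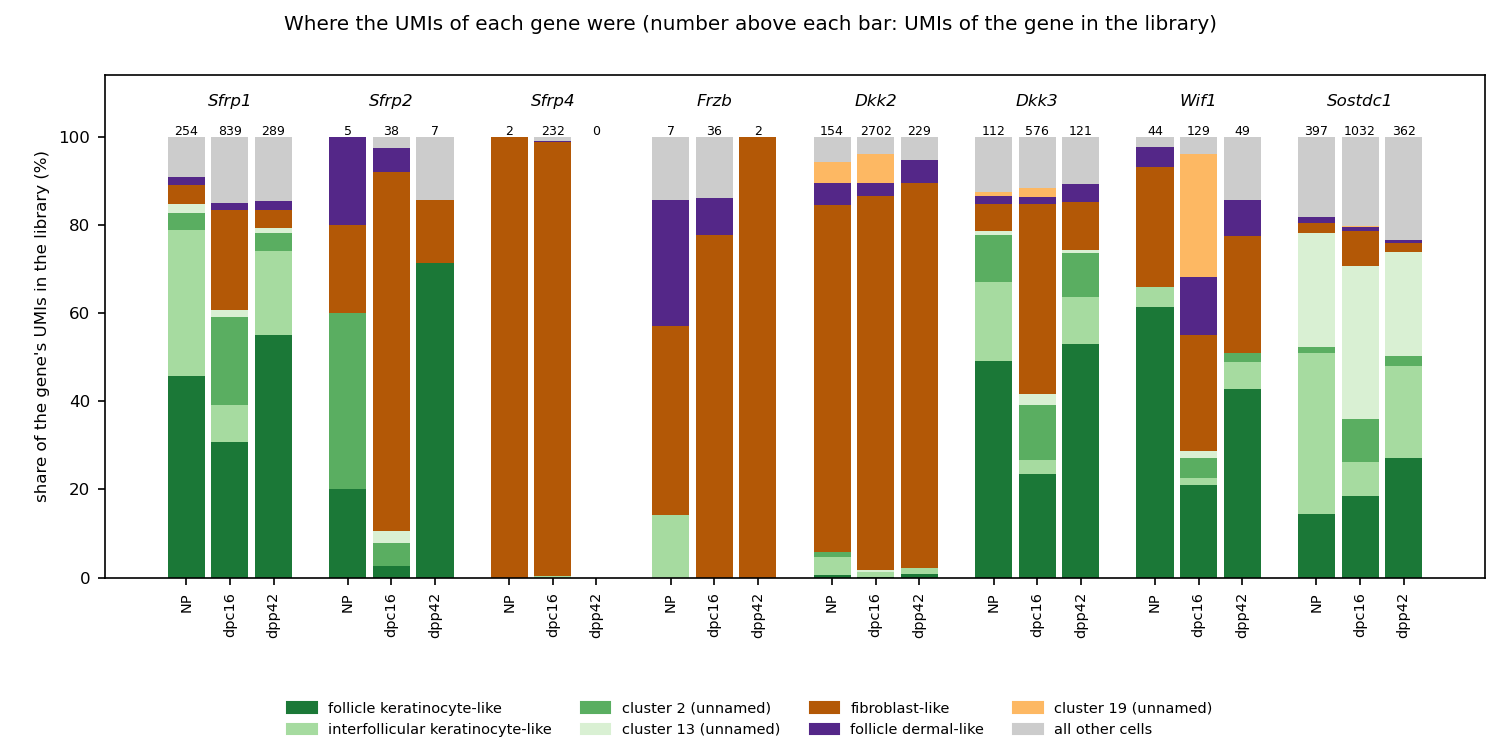
Share of each gene's UMIs (vertical axis, percent) by cell class in each library (horizontal axis), with the UMI total above each bar. Dkk2 UMIs lie mainly in fibroblasts in every library (78.6, 85 and 87.3%), while the fibroblast share of Dkk3 is 6.25, 43.1 and 10.7%. Fibroblast-like cells are 7.6, 29.6 and 10.4% of the cells in NP, dpc16 and dpp42.

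The same cells often held more than 1 inhibitor. In cluster 0, 22 of 29 NP, 33 of 42 dpc16 and 24 of 35 dpp42 cells with a Dkk3 UMI also had an Sfrp1 UMI, or 75.9, 78.6 and 68.6%, against 60.3, 61.5 and 66.3% of all its cells. Cells with Sostdc1 UMIs also had Sfrp1 in 66.7, 67.5 and 72.7% of cases. In dpc16 fibroblast-like cells, 21 of the 92 Sfrp4-positive cells held Dkk2, or 22.8%, against 47.3% of all cells, and 30 of them held Sfrp1, or 32.6%, against 10.3% of all cells. Of 25 Frzb-positive cells 22 held Dkk2, or 88%. Of these Sfrp4-positive cells 51 were in cluster 3, low in Dkk2, and of these Frzb-positive cells 16 were in cluster 18, high in Dkk2. Cells with more UMIs also show more genes of every kind. Neither the part of the clusters nor that of depth was separated here.

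Likeness to other genes was measured as Pearson's r of log2(CPM + 10) over 33 sums of a class or cluster in a library, which share libraries and cells, among 11630 genes, and is a description only. The gene most like Sfrp1 was Lgr5 (0.87), followed by Il31ra (0.85) and Pdzrn4 (0.85). The follicle keratinocyte sums join clusters 0, 6 and 20, and Lgr5 was among the leading genes of cluster 20, where Sfrp1 was lower than in cluster 0. Dkk2 was most like C1qtnf2 (0.97), Hoxc10 (0.96) and Rspo1 (0.96), Sfrp4 most like Klk1b21 (0.96), Cml3 (0.95) and Klk1b1 (0.95), and Dkk3 most like Trabd2b (0.90), Col12a1 (0.89) and Adamtsl4 (0.89). Sfrp4 and its 3 genes all stood highest in the dpc16 fibroblast sum, so their r leans on that point. That sum joins clusters 3, 18, 24 and 25. Klk1b21 was among the leading genes of cluster 25, while Sfrp4 was at 131 CPM in cluster 3 and 44.4 CPM in cluster 25. Wif1 was most like Nkd1, Egflam and Tenm3 (0.83 each), Sostdc1 most like Zfp365 (0.88), Gstm5 (0.87) and Vdr (0.85), Frzb most like Larp6 (0.88), Dnm3os (0.86) and C1qtnf7 (0.85), and Sfrp2 most like Plagl1 (0.81), Myoc (0.81) and Crispld1 (0.78). The values for Frzb and Sfrp2 rest on 45 and 50 UMIs over all cells. Both stood highest in dpc16 follicle dermal-like cells, on 3 and 2 UMIs. Rspo1 encodes an activator of Wnt signalling, Lgr5 a receptor for such R-spondins, and Trabd2b a membrane inhibitor of Wnts. Among the 8 genes themselves r was 0.70 between Sfrp1 and Dkk3, 0.73 between Dkk3 and Wif1, 0.70 between Dkk2 and Wif1, −0.03 between Sfrp1 and Dkk2 and −0.26 between Dkk2 and Sostdc1.

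Stages were compared within classes by the ratio of CPM. Only genes that reached 10 CPM in either library and 20 UMIs in the pair were measured. Such a gene was called when its ratio passed 1.5-fold in either direction and its 95% counting interval left out 1. In dpc16 fibroblast-like cells against NP, 2 of 7 measured inhibitor genes passed, while 21.9% of all measured genes did and the median of all genes was −0.30 on the log2 scale. Sfrp4 was 6.55 times higher in dpc16 (1.79 to 54.4), resting on the 2 NP UMIs. Wif1 was at 7.11 CPM in dpc16 (4.92 to 9.93) against 43.6 CPM in NP (22.6 to 76.2), a ratio of 0.16 (0.08 to 0.35). The intervals of the libraries did not overlap for either gene, whereas Dkk2 had a ratio of 1.09 (0.91 to 1.32) and Sfrp1 of 1.00 (0.55 to 2.03). The Wif1 UMIs numbered 34 in 28 dpc16 cells and 12 in 9 NP cells. With at most 5% mitochondrial UMIs neither Sfrp4 nor Wif1 passed the rule, and the log2 ratio of Sfrp4 was 0.83, against 2.39 at the 10% limit. Without a mitochondrial limit the log2 ratio of Wif1 was −1.60 (5.75 against 15.8 CPM), against −2.66, and Wif1 again did not pass.

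In fibroblast cluster 18, Wif1 stood at 206, 8.94 and 153 CPM in the order NP, dpc16, dpp42, on 9, 10 and 11 UMIs in 6, 6 and 3 cells. In dpp42, 7 of the 11 came from 1 cell. Dermal papilla and sheath markers in this cluster summed to 1121 CPM in NP, 818 in dpc16 and 1252 in dpp42, with 5, 11 and 8 of 15 having a UMI and Rspo2, Hhip, Alx4 and Acan at 0 in each. Fibroblast markers there summed to 26274, 65173 and 43959 CPM and basal keratinocyte markers to 3639, 2120 and 4243 CPM. The part of those cells in the Wif1 difference was not tested.

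In dpp42 fibroblast-like cells against NP, 1 of 4 measured inhibitor genes passed, beside 15.6% of all genes: Dkk2, at 682 against 440 CPM, a ratio of 1.55 (1.23 to 1.96). Within cluster 24, which held most dpp42 but not most NP fibroblasts, the direction was opposite, at 703 CPM in dpp42 against 1084 CPM in NP (0.65, 0.49 to 0.87), and the dpc16 level was likewise lower than in NP there (0.65, 0.52 to 0.83). In that cluster 11.4% of all genes passed in dpp42 over NP and 14.5% in dpc16 over NP. The higher class level of dpp42 thus stands beside a different share of cells per cluster. With at most 5% mitochondrial UMIs the log2 ratio over the class turned to −1.03, at 484 against 997 CPM, and with size factors it was 0.47, under the rule. In dpp42 against dpc16, 2 of 6 measured genes passed in fibroblasts, beside 25.3% of all genes, at a median of 0.50 on the log2 scale over all genes. Sfrp4 was at least 4.66-fold lower and Wif1 was 6.24 times higher in dpp42 (3.02 to 12.1). Dkk2, at a ratio of 1.42 (1.22 to 1.64), stayed under 1.5-fold.

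**Figure D5:**
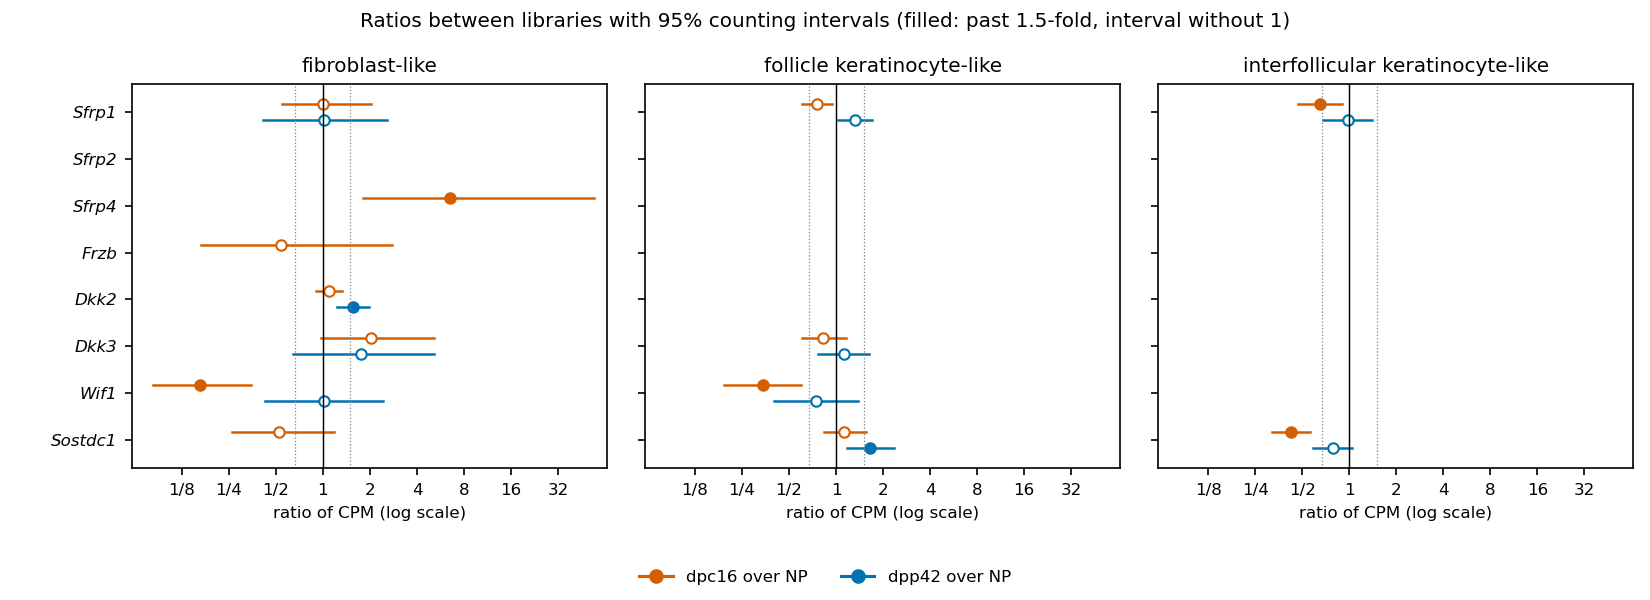
Ratios of CPM of dpc16 and dpp42 over NP (horizontal axis, log scale) for each measured gene in fibroblast-like, follicle keratinocyte-like and interfollicular keratinocyte-like cells, with 95% counting intervals; filled points passed the rule of 1.5-fold with an interval without 1. Sfrp4 stands right of 1 and Wif1 left of 1 in dpc16 fibroblasts (6.55 and 0.16), and Sfrp1 and Sostdc1 stand left of 1 in dpc16 interfollicular cells (0.65 and 0.43).

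In follicle keratinocyte-like cells of dpc16 against NP, 1 of 4 measured inhibitor genes passed, beside 18.7% of all genes. This was Wif1, at 16.8 against 49.7 CPM (0.34, 0.19 to 0.60). In the bulge-like clusters alone its ratio was 0.53 (0.30 to 0.94), beside 18.9% of all genes there past the rule, and in cluster 20 it was 0.60 (0.31 to 1.13); cluster 6, which has none, held 156 of 395 dpc16 and 30 of 154 NP follicle cells. Sfrp1 was at 161 against 214 CPM (0.75, 0.60 to 0.95) over the class and at a ratio of 1.11 (0.88 to 1.39) in the bulge. Of the single clusters, cluster 20 had Dkk3 at 129 CPM in dpc16 against 49.8 CPM in NP (2.59, 1.43 to 5.02), and 26% of all genes measured in that cluster passed the rule.

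In dpp42 follicle keratinocyte-like cells against NP, 1 of 4 inhibitor genes passed, beside 9.62% of all genes. Sostdc1 was at 174 against 105 CPM (1.65, 1.18 to 2.34), with a ratio of 1.93 (1.33 to 2.84) in the bulge, 2.84 (1.4 to 6.25) in cluster 20 and 1.5 (0.96 to 2.38) in cluster 0. Of all genes, 10.1% passed in the bulge and 13.1% in cluster 20. The log2 ratio over the class turned to −0.44 with at most 5% mitochondrial UMIs and was 0.09 with unnamed keratinocyte clusters joined. Sfrp1 was at 282 against 214 CPM (1.32, 1.03 to 1.69), under 1.5-fold. In dpp42 against dpc16, 2 of 4 passed, beside 24.5% of all genes, at an all-gene median of 0.17 on the log2 scale: Sfrp1 (1.75, 1.43 to 2.14) and Wif1 (2.21, 1.19 to 4.06). Within the bulge the Sfrp1 ratio was 1.12 (0.91 to 1.37). Fibroblast markers in follicle keratinocyte-like cells summed to 188, 677 and 310 CPM, beside 67753, 98129 and 60250 CPM in fibroblast-like cells, and their part in these ratios was not tested.

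In interfollicular cells of dpc16 against NP, both measured inhibitor genes were lower, Sfrp1 at 16.7 against 25.7 CPM (0.65, 0.47 to 0.91) and Sostdc1 at 18.9 against 44.3 CPM (0.43, 0.32 to 0.56). Of all genes 34.9% passed the rule either way, most of them lower in dpc16 (27.1%), with a median of −0.26 on the log2 scale. With clusters weighted equally, Sfrp1 no longer passed and Sostdc1 did. Sfrp1 in dpc16 was also below its blood endothelial level, as given above. Cluster 22 held 37 of 613 NP, 187 of 509 dpc16 and 14 of 290 dpp42 interfollicular cells, and its part in the ratios of this class was not tested. In dpp42 against NP neither of the 2 passed, beside 7.8% of all genes, with Sfrp1 at 0.98 (0.68 to 1.39) and Sostdc1 at 0.78 (0.59 to 1.04). Against dpc16, both were higher in dpp42, beside 34.4% of all genes (median 0.23): Sfrp1 by 1.5 times (1.04 to 2.17) and Sostdc1 by 1.84 times (1.33 to 2.55). The Sfrp1 calls held in 8 of 15 alternatives for dpc16 over NP and in 7 of 15 for dpp42 over dpc16, where its log2 ratio was 0.35 with size factors and 0.23 without clustering. Leaving out the cell with most UMIs ended both. With cells classed by marker UMIs without clustering, the Sostdc1 log2 ratio was −0.12 for dpc16 over NP and turned to −0.074 for dpp42 over dpc16. Fibroblast markers in interfollicular cells summed to 117, 886 and 146 CPM at the 3 stages, and their part in these ratios was not tested.

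Summed over whole libraries, where the fraction of each cell type and the level per cell cannot be told apart, Dkk2 was 5.26 times higher in dpc16 than in NP (137 against 26.1 CPM, 4.47 to 6.22), Sfrp4 34.8 times higher (11.8 against 0.339 CPM, 9.51 to 289, on 2 NP UMIs of 1 cell) and Dkk3 1.54 times higher (1.26 to 1.90). Of all genes 35.8% passed in that comparison, with a median of −0.14. In dpp42 against NP, Dkk2 was 1.62 times higher (1.31 to 2), beside 10.3% of all genes. In dpp42 against dpc16, Dkk2 was at a ratio of 0.31 (0.27 to 0.35) and Sfrp4 at least 21.3-fold lower, beside 34.5% of all genes. The whole-library ratio of Dkk2 in dpc16 stands beside 29.6% fibroblast-like cells in dpc16 and 7.6% in NP, and its ratio within those cells was 1.09.

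Other genes of the pathway were read from lists of ligands, receptors and targets, all without replicates, and those named here were chosen after their values were seen. The target list includes Wif1, itself among the inhibitor genes, and genes such as Nkd2, Notum and Lgr5 that also stand in other lists. Counts of target genes here and below thus partly repeat results given elsewhere. In dpc16 fibroblast-like cells against NP, 0 of 11 measured Wnt receptor genes were higher and 4 lower, at a median of −0.38 on the log2 scale beside −0.30 for all genes, including the receptor genes Ryk (72.3 against 142 CPM) and Ptk7 (40.8 against 98.2 CPM). Of 3 measured ligand genes 1 was lower, Wnt5a, a ligand that often signals without β-catenin, at 49.7 against 236 CPM (0.21, 0.16 to 0.28). Of 15 target genes 1 was higher and 4 lower. Over all genes, 6.1% were higher and 15.8% lower in this comparison. The higher target gene was Wisp2, a secreted CCN family gene, at 255 against 29.1 CPM (8.77, 4.44 to 20.4), and Myc was lower at 55.8 against 135 CPM. Axin2, a general reporter of β-catenin signalling, was at 26.1 CPM in dpc16 and 36.4 CPM in NP.

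In dpp42 fibroblast-like cells against NP, 3 of 3 measured genes on the membrane inhibitor list were higher, at a median of 1.03 beside 0.08 for all genes. They were Shisa5 (201 against 124 CPM), Kremen1, the DKK co-receptor gene (106 against 50.9 CPM), and Nkd2, a cytoplasmic and membrane-bound inhibitor of Dishevelled (116 against 54.6 CPM). An effect of Shisa5 itself on Wnt signalling was not tested. Of 2 R-spondin genes 1 was higher, Rspo1, at 170.5 against 69.1 CPM (2.47, 1.43 to 4.43). Of 9 target genes 3 were higher and 1 lower, and none of 7 receptor genes passed. Over all genes, 8.36% were higher and 7.2% lower. The ligand gene Wnt5a was at 249 against 236 CPM. In dpp42 against dpc16, where the median of all genes was 0.50, 4 of 12 receptor and 9 of 15 target genes were higher, and 0 and 1 lower, beside 20.6% higher and 4.74% lower over all genes.

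In dpc16 follicle keratinocyte-like cells against NP, 0 of 14 receptor genes were higher and 4 lower, and of 9 target genes 1 was higher and 5 lower, among them the cell cycle gene Ccnd1 (12.5 against 79.2 CPM). Their medians were −0.53 and −1.19 beside −0.083 for all genes, of which 8.47% were higher and 10.2% lower. In dpp42 against NP, 2 of 14 receptor genes were higher and 0 lower: Lrp6, which encodes the co-receptor bound by DKK2 (124 against 73.6 CPM), and Lgr5 (234 against 136 CPM). Over all genes, 5.51% were higher and 4.11% lower. In dpc16 interfollicular cells against NP, 8 of 9 receptor genes were lower and 0 higher, at a median of −0.98 beside −0.26 for all genes, including Lrp4, a co-receptor bound by the Sostdc1 protein (45.8 against 122 CPM). There 4 of 6 membrane inhibitor genes and 3 of 6 target genes were lower, with Axin2 at 10.1 against 31.2 CPM (0.33), while of 6 ligand genes 1 was higher and 3 lower, Wnt10a being the higher one at 54.7 against 18.6 CPM. Over all genes, 27.1% were lower and 7.77% higher. In dpp42 against NP, 1 of 10 receptor, 2 of 6 ligand and 2 of 6 target genes were lower in interfollicular cells and none was higher, beside 4.78% lower and 3.02% higher over all genes.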

How the data were processed

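The libraries used 10x version 2 chemistry, per the labels; the submitters' processing notes name Cell Ranger 2.2.0 and the builds mm10 and GRCm38. The deposited matrices hold raw UMI counts per gene and barcode, which the authors did not normalize. Of 28693 gene identifiers, 28339 matched GENCODE M21. Barcodes with under 200 genes or over 10% mitochondrial UMIs were left out (626). No doublet caller was run and no doublets were removed.

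Cells were clustered together in scanpy 1.11.5 (2000 variable genes without the 8 inhibitor genes, 30 components, 15 neighbours, Leiden resolution 1, seed 0). A cluster took the marker list with the highest mean enrichment, with at least 3 markers in 10% of cells at over 1.4 times the level of other clusters. Of 32 clusters 5 stayed unnamed. In clusters 2, 9, 13 and 19 more of the 10 leading genes were markers of another class, and inner root sheath genes led cluster 28. Counts were summed per class and library as CPM, with exact Poisson intervals. Ratios have exact conditional binomial intervals and shares exact Clopper-Pearson intervals, all at 95%. Log2 ratios have 0.5 UMI added. The ratio intervals were checked only on simulated Poisson counts, the model they assume. UMIs that gather in single cells, as for Wif1 and Sfrp4 here, were not simulated, so the check does not cover them. No p-value was computed with 1 library per group.

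The inhibitor genes, marker lists and pathway lists were chosen with earlier results of these data known. Named genes are the 8 members, their 3 most alike genes, and Axin2, Lef1, Col1a1 and Dcn as reference points. Alternatives covered the cell filter, scaling, low counts, fold, thinning, clustering and class weights.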

Additional observations from a re-analysis of the deposited data

How the results depend on the processing

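Counting error and the single library per stage limit all results, and genes under 20 UMIs in a comparison were not read. No paired analysis was possible because each stage has 1 library. Over the 15 alternatives, 73 of 106 summary values stayed close to the main result and 33 moved. Of 543 values for the 8 genes, 477 stayed close, 62 moved and 4 turned round. Staying close does not mean that a call was kept, and kept calls are counted separately.

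For 3 genes, 4 ratios turned round: with at most 5% mitochondrial UMIs, Dkk2 in dpp42 over NP fibroblasts was −1.03, Wif1 in dpp42 over dpc16 fibroblasts −0.029 and Sostdc1 in dpp42 over NP follicle cells −0.44 (log2), and with cells classed by marker UMIs without clustering, Sostdc1 in dpp42 over dpc16 interfollicular cells was −0.074. The cause was not tested. Sfrp4 in dpp42 over dpc16 fibroblasts kept its call under all 15 settings, and Sfrp4 in dpc16 over NP under 13. Wif1 in dpc16 over NP kept its call under 10 settings in fibroblasts and 13 in follicle cells, Dkk2 in dpp42 over NP fibroblasts under 9, and Sostdc1 in dpp42 over NP follicle cells under 6.

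Of the 8 genes, 4 kept their highest class at resolution 0.5, 5 with thinned cells and 4 with no mitochondrial limit, and at resolution 0.5 and with no mitochondrial limit none was highest in follicle dermal cells. For dpc16 over NP the inhibitor genes past the rule numbered, in fibroblasts (2), 1 with at most 5% mitochondrial UMIs, 1 with no limit, 1 with thinned cells, 5 with clusters weighted equally and 0 without clustering; in follicle cells (1), 3 with at most 5% and 0 without clustering; and in interfollicular cells (2), 0 with thinned cells, 0 without clustering, and 1 each with a fold of 2, clusters weighted equally, size factors, and, an alternative added after seeing the data, without the cell with most UMIs. The 1 gene past the rule in dpc16 over NP fibroblasts with at most 5% was neither Sfrp4 nor Wif1. For dpp42 over NP fibroblasts (1) the number was 0 at resolution 0.5, with a fold of 2, with size factors and without clustering. For follicle cells (1) it was 0 at resolutions 0.5 and 2, with at most 5%, with no limit, with thinned cells, with a fold of 2, with clusters weighted equally, and with unnamed keratinocyte clusters joined, also added after seeing the data. Pathway genes past the rule in dpc16 over NP fibroblasts (11) numbered 5 with at most 5%, 6 with thinned cells, 18 with clusters weighted equally, which has no interval, 6 without clustering and 6 without cluster 25 of dpc16, added after seeing the data.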
